A study of Mus musculus with 12 samples.

Results

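Wild-type (WT) mouse limbs at 13.5 days post coitum (dpc) were compared with WT limbs at 12.5 dpc. The comparison used the 2 arrays of WT limbs at 13.5 dpc and the 2 arrays of WT limbs at 12.5 dpc, chosen by their titles, out of the 12 arrays of the series. The other 8 were WT limbs of 11.5 dpc and limbs of mice without Lmx1b (knockout, KO, Lmx1b -/-) at 11.5, 12.5 and 13.5 dpc, again 2 arrays a group. Lmx1b encodes the LIM homeodomain factor that gives the limb its dorsal character, and the question of the series, from its title, was how expression differs while dorsal character is set. All embryos were labelled C57BL/6 and the WT embryos Lmx1b +/+, and the labels name no treatment or transgene. The WT 13.5 dpc arrays read the distal limb, that is the zeugopod (forearm or lower leg) with the autopod (hand or foot), labelled as handplate. The WT 12.5 dpc arrays read the limb bud together with its girdle. Stage and dissected part therefore cannot be told apart in any change given here. The array names in the labels also give each stage a scan series of its own, with both genotypes in it, so that scan series and stage cannot be told apart either. The RNA on each array came from a pool of limbs, and the embryos of the 2 replicates differed. The series text gives 6 limbs a pool at 13.5 dpc and 3 at 12.5 dpc, but by the extraction protocol every sample had 6. Forelimbs and hindlimbs are both named in the series text, but not their proportion in each pool.

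At these stages the mouse limb turns from a paddle with condensing digit rays into a hand or foot plate with separating digits. The skeleton forms first as condensations of mesenchyme that become cartilage, with joint interzones between the elements, and cartilage later matures towards bone at the centre of each shaft. Tendon cells arise within the limb mesenchyme, whereas muscle precursors migrate in from the somites and fuse into fibres in the proximal limb before the distal limb. The covering ectoderm begins to layer into an epidermis. Along the long axis, Shox2 and the 5′ HOX genes of paralogue groups 9 to 13 mark successive segments, and Pitx1 with Tbx4 or Tbx5 sets hindlimb or forelimb identity. The blood of the early embryo carries primitive red cells with embryonic globins, which cells from the fetal liver later replace.

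Values are deposited log2 expression values made with RMA, a method that subtracts background, brings the arrays to a common distribution and combines the probes of a probe set, so that a difference of 1 is a doubling. Each of 18193 genes was read from its brightest one-gene probe set, judged by the mean of all 12 arrays. The median of all values, 6.28, served as a mark for dim probe sets. The level of a probe set depends on its probes, so levels are compared between arrays for 1 gene and never between genes. The 4 arrays carried limb mesenchyme as labelled. Prrx1, a homeobox gene of limb mesenchyme, lay at 12.40 and 12.41 in the WT 13.5 dpc arrays and 12.42 and 12.45 in the WT 12.5 dpc arrays. Prrx2, a further marker of limb mesenchyme, was also close between the stages. Twist1, another such marker, was not level. It lay at 11.73 and 11.59 in the WT 13.5 dpc arrays, above 10.73 and 10.56 in the WT 12.5 dpc arrays. Markers of liver (Alb, Afp), lung (Sftpc) and kidney (Pax8) lay at 4.14 to 5.68 in the 4 arrays, below that median. The heart marker Nkx2-5 lay at 6.18 and 6.05 in the WT 13.5 dpc arrays and at 5.82 and 6.49 in the WT 12.5 dpc arrays, above the median in the last of these. The root mean square difference between the replicate arrays was 0.148 log2 units across genes at 13.5 dpc and 0.237 at 12.5 dpc. The hybridisation control BioB lay at 8.84 and 8.67 in the WT 13.5 dpc arrays, against 9.66 and 9.48 at 12.5 dpc. The 3′ minus 5′ difference of the Gapdh controls, a sign of RNA integrity, was 0.10 and 0.08 at 13.5 dpc, against -0.05 and -0.06 at 12.5 dpc. The part of these differences in the results was not tested.

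Between the stages, 2635 genes were higher and 1963 lower at 13.5 dpc, which is 14.5% and 10.8% of the 18193 tested (limma, two-sided, Benjamini-Hochberg adjusted p under 0.05). These shares are the background for every list count below. The median change over all genes was 0.0058 log2 units, a value that the normalization of the arrays to a common distribution holds near 0. Changes of at least 1 log2 unit, a doubling or halving, were called for 272 genes higher (1.5%) and 122 lower (0.671%). Both WT 13.5 dpc arrays lay above both WT 12.5 dpc arrays for 35% of all genes and below them for 33.1%. The counts rested on having both arrays of each stage. They were 1139 higher and 524 lower without WT 13.5 dpc replicate 2, 1288 and 799 without WT 13.5 dpc replicate 1, 1626 and 1115 when WT 12.5 dpc replicate 1 was left out, and 1946 and 1121 for WT 12.5 dpc replicate 2. Of the 35 gene lists used here, 531 different genes were measured, and 122 of them were higher and 70 lower. The lists were chosen with earlier results of these data known, so a list share above the background may reflect that choice.

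**Figure D1:**
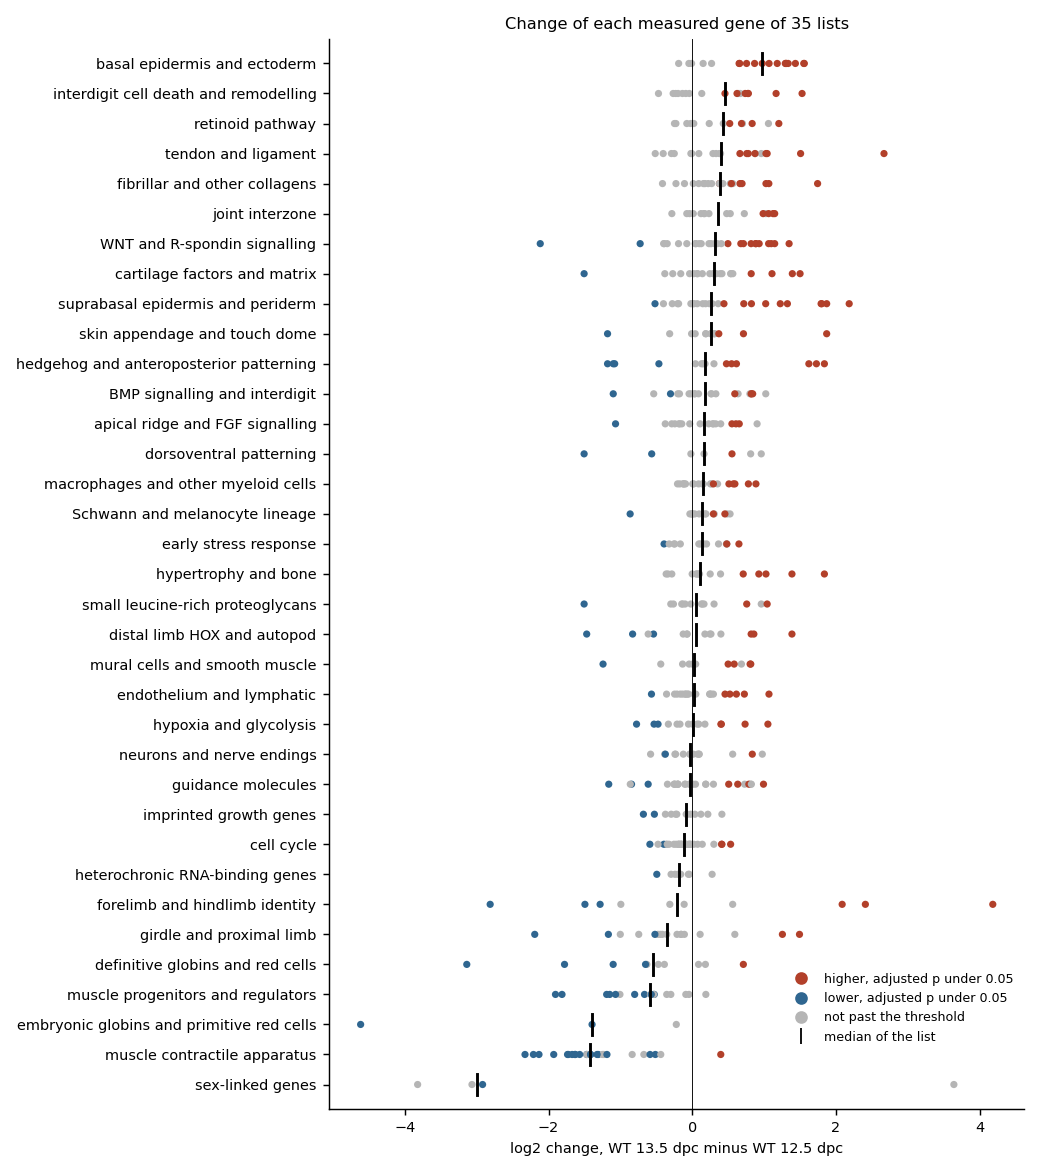
Log2 change from WT 12.5 to WT 13.5 dpc (horizontal axis, 13.5 minus 12.5 dpc) of each measured gene of the 35 lists, 1 list a row; red and blue points passed the adjusted p of 0.05, grey points did not, and black ticks are list medians. Basal epidermis had a median of 0.97 and the muscle contractile apparatus a median of -1.43.

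Pitx1 showed the largest rise of any called gene, with Tbx4 and Hoxc10 also higher and Tbx5, Hoxc5 and Hoxc6 lower. Pitx1, the homeobox gene that specifies the hindlimb, lay at 10.17 and 10.06 log2 units in the WT 13.5 dpc arrays, against 5.80 and 6.06 in the WT 12.5 dpc arrays. The arrays of the 2 stages lay far apart, an 18.2-fold difference (log2 change 4.18 ± 0.15, SE, 2 arrays a stage, limma adjusted p = 7.94e-07), and the other probe set of Pitx1 changed by 2.76. Tbx4, the T-box gene of the hindlimb, lay at 10.00 and 10.12 at 13.5 dpc, against 7.97 and 7.98 at 12.5 dpc (2.09 ± 0.14, adjusted p = 6.42e-05). Hoxc10, a HOX gene expressed in the hindlimb, lay at 7.35 and 7.35 at 13.5 dpc, against 4.66 and 5.22 at 12.5 dpc (2.41 ± 0.33, adjusted p = 0.00123). Forelimb genes were lower over the same interval. Tbx5, the T-box gene of the forelimb, lay at 9.60 and 9.47 in WT 13.5 dpc limbs and 10.91 and 11.14 in WT 12.5 dpc limbs (-1.49 ± 0.19, adjusted p = 0.000972), and its other probe set changed by -1.85. The anterior HOX genes Hoxc5, at 5.20 and 5.06 against 7.91 and 7.98 (-2.81 ± 0.93, adjusted p = 0.0495), and Hoxc6, at 6.45 and 6.27 against 7.56 and 7.73 (-1.28 ± 0.36, adjusted p = 0.026), fell with it. Of 10 measured identity genes, 3 were higher and 3 lower, and Isl1, an early hindlimb factor, did not pass (0.56 ± 0.31). Without any 1 of the 4 WT arrays of these stages 1 was lower. The calls of Hoxc5 and Hoxc6 ended without any 1 of the 4 WT arrays of these stages (adjusted p of up to 0.18 and 0.134), and that of Hoxc5 also without any 1 array of 11.5 dpc. The 3 rises and the fall of Tbx5 held without each of the 12 arrays in turn. The summed level of Pitx1, Tbx4, Hoxc10 and Isl1 on the linear scale was 2378 and 2386 at 13.5 dpc, against 357 and 387 at 12.5 dpc. That of Tbx5, Hoxc4, Hoxc5 and Hoxc6 was 985 and 908 at 13.5 dpc, against 2534 and 2893 at 12.5 dpc. Both groupings were made after the values were seen, so the sums restate the levels of single genes and test nothing further. Each sum is weighted to its brightest probe sets, such as those of Pitx1 and Tbx4. Since the labels do not give the share of forelimbs and hindlimbs in each pool, that share and the stage cannot be told apart.

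**Figure D2:**
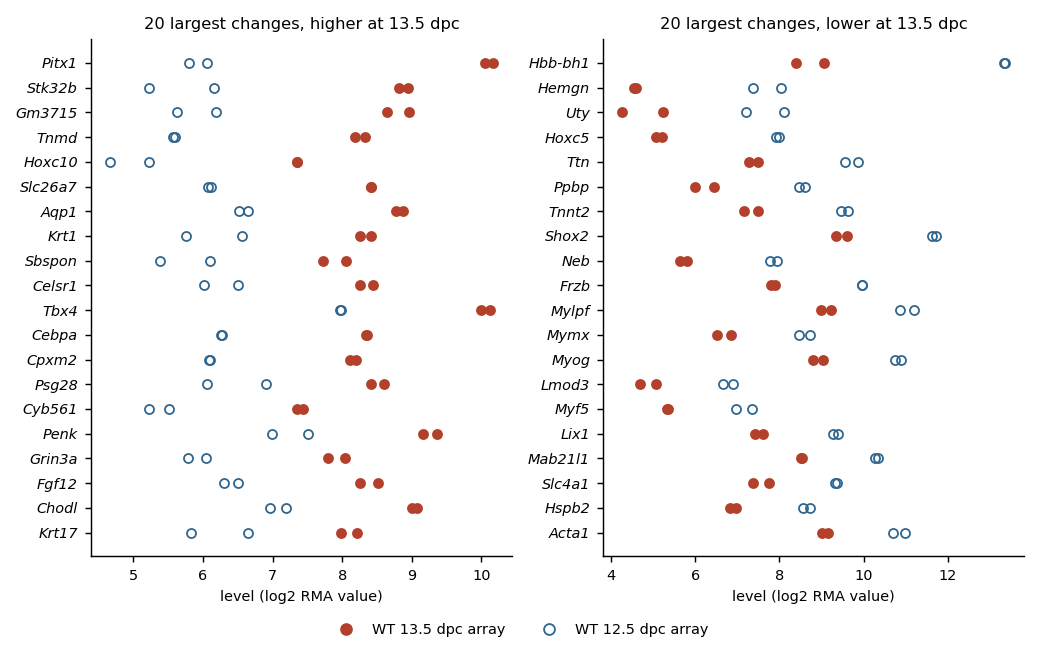
Level in log2 units (horizontal axis) of the 20 genes with the largest called rise (left) and the 20 with the largest called fall (right) in each WT 13.5 dpc array (filled red) and each WT 12.5 dpc array (open blue). Pitx1 lay at 10.17 and 10.06 at 13.5 dpc and 5.80 and 6.06 at 12.5 dpc, Hbb-bh1 at 9.05 and 8.40 and 13.33 and 13.36; levels are read along a row and not between rows.

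Of 17 measured girdle and proximal genes 2 were higher (11.8%) and 3 lower (17.6%), close to the shares over all genes, and 6 were lower without any 1 of the KO arrays of these stages. Shox2, the homeobox gene required for the upper arm and thigh, lay at 9.61 and 9.35 log2 units in WT 13.5 dpc limbs, against 11.62 and 11.72 in WT 12.5 dpc limbs (-2.19 ± 0.35, adjusted p = 0.00222). Both of its 13.5 dpc values lay about 2 units below both 12.5 dpc values, and its other probe set changed by -2.10. Arrays that did not overlap, with 13.5 dpc lower by any amount, were seen for 33.1% of all genes. Hoxd9, a HOX gene of the upper limb segment, lay at 9.23 and 8.98 at 13.5 dpc and 10.22 and 10.32 at 12.5 dpc (-1.17 ± 0.17, adjusted p = 0.00143). Against these, Irx5 (1.49 ± 0.34) and Irx3 (1.25 ± 0.35), Iroquois genes needed for the proximal and anterior skeleton, were higher, with Irx3 at 9.19 and 9.29 in WT 13.5 dpc limbs and 7.70 and 8.28 in WT 12.5 dpc limbs. Their calls ended without WT 13.5 dpc replicate 1 or 2 or WT 12.5 dpc replicate 1 (adjusted p of up to 0.077 and 0.151). Meis1, a cofactor that marks the most proximal limb, did not pass (-0.75 ± 0.40), nor did the scapula gene Emx2 (0.59 ± 0.25) or the girdle gene Alx1 (-1.0 ± 0.33, adjusted p = 0.0509).

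Of the HOX genes of the distal limb Hoxa11 was lower and Hoxa13 and Hoxc13 were higher. Hoxa11, which patterns the forearm and lower leg, lay at 9.09 and 8.72 in WT 13.5 dpc limbs and 10.44 and 10.31 in WT 12.5 dpc limbs (-1.47 ± 0.17, adjusted p = 0.000677). Hoxa13, needed for the digits, lay at 9.72 and 10.03 at 13.5 dpc and 9.16 and 8.87 at 12.5 dpc (0.86 ± 0.19, adjusted p = 0.0103), and its call ended without replicate 2 of either stage (adjusted p of up to 0.0901). Hoxc13, known from nails and hair, lay at 7.33 and 7.36 at 13.5 dpc and 5.64 and 6.27 at 12.5 dpc (1.39 ± 0.21, adjusted p = 0.00198). Hoxd13, the digit gene of the Hoxd cluster, did not pass (0.40 ± 0.17), and neither did Hoxd11 (0.25 ± 0.14). Of the 14 genes of the distal list 3 were higher and 3 lower, and 1 was lower without WT 13.5 dpc replicate 2. Over 33 measured HOX genes, 3 were higher and 8 lower, with a median change of -0.23, and 3 were lower without any 1 of the 4 WT arrays of these stages and 5 without either KO 11.5 dpc array. In the Hoxa cluster Hoxa10 (-0.52 ± 0.15) and Hoxa7 (-0.52 ± 0.17) fell as well as Hoxa11. Hoxd8 (-1.37 ± 0.15) fell in the Hoxd cluster and Hoxb2 (-1.05 ± 0.34) in the Hoxb cluster. The calls of Hoxa10, Hoxa7 and Hoxb2 ended without any 1 of the 4 WT arrays of these stages (adjusted p of up to 0.181, 0.184 and 0.172), and those of Hoxa7 and Hoxb2 also without either KO 11.5 dpc array, that of Hoxb2 without either WT 11.5 dpc array as well. Among other genes of the hand plate, Msx1, a homeobox gene of interdigital and distal mesenchyme, rose (0.82 ± 0.16, adjusted p = 0.00508), and Lhx9, a LIM homeobox gene of the distal bud, fell (-0.83 ± 0.17, adjusted p = 0.00641, and 0.0566 without WT 13.5 dpc replicate 2).

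**Figure D3:**
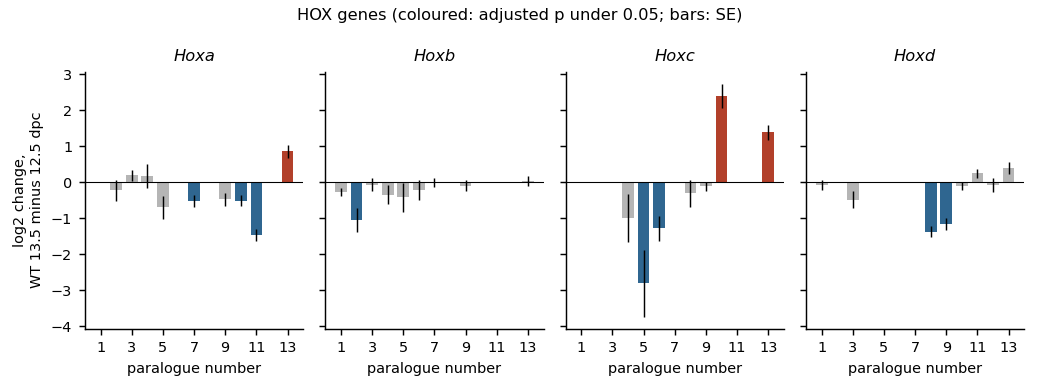
Log2 change of each measured HOX gene (vertical axis, WT 13.5 minus WT 12.5 dpc) by cluster and paralogue number (horizontal axis); red and blue bars passed the adjusted p of 0.05, grey bars did not, and lines are SE. Hoxc10 rose by 2.41, while Hoxc5 changed by -2.81 and Hoxa11 by -1.47.

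Shh and Grem1, signals of the early bud, were lower, and Ihh with part of the hedgehog targets was higher. Sonic hedgehog, encoded by Shh and secreted by the posterior bud, lay at 5.85 and 5.68 in WT 13.5 dpc limbs and 6.95 and 6.94 in WT 12.5 dpc limbs (-1.18 ± 0.28, adjusted p = 0.0138). Both 13.5 dpc values lay below the median of all values, and the other probe set of Shh, a dim one, changed by -0.024 and did not pass. Indian hedgehog, encoded by Ihh and made by maturing cartilage, lay at 8.37 and 8.39 at 13.5 dpc and 6.69 and 6.40 at 12.5 dpc (1.84 ± 0.37, adjusted p = 0.00636). The hedgehog targets Gli1, a transcription factor, at 9.15 and 9.17 against 7.57 and 7.51 (1.62 ± 0.11, adjusted p = 6.42e-05), and Hhip, an inhibitor that binds the ligand, at 8.72 and 8.61 against 6.87 and 7.0 (1.73 ± 0.24, adjusted p = 0.00123), were higher at 13.5 dpc. The receptor gene Ptch1, also a target, did not pass (0.04 ± 0.10), whereas Smo, the signal transducer, rose (0.48 ± 0.08). Grem1, the BMP antagonist that links posterior signalling to the apical ridge, fell (-1.10 ± 0.26, adjusted p = 0.013), as did Tbx3, a T-box gene of the limb margins (-1.08 ± 0.12, adjusted p = 0.00056). Of 15 measured hedgehog and anteroposterior genes, 6 were higher (40%) and 4 lower (26.7%), and 2 were lower without WT 12.5 dpc replicate 2 and 1 without any other of the 4 WT arrays. The call of Shh ended without any 1 of the 4 WT arrays of these stages, and that of Grem1 without 3 of them, all but WT 12.5 dpc replicate 2 (adjusted p of up to 0.0902 and 0.0746).

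Of the ridge and FGF genes, 3 of 18 were higher and 1 was lower, with 1 higher without WT 13.5 dpc replicate 2 and 5 without either KO 12.5 dpc array. The FGF target Dusp6, a phosphatase that restrains the signal, lay at 10.12 and 10.08 in WT 13.5 dpc limbs and 11.28 and 11.05 in WT 12.5 dpc limbs (-1.07 ± 0.24, adjusted p = 0.0102, and up to 0.0658 without either WT 13.5 dpc array or WT 12.5 dpc replicate 1). The ridge ligand Fgf8 did not pass (-0.38 ± 0.45), nor did the mesenchymal ligand Fgf10 (0.11 ± 0.20). Of the 20 BMP genes, 4 were higher and 2 lower, with 7 higher without either KO 12.5 dpc array. The ligand gene Bmp7 (0.82 ± 0.11) and the inhibitory Smad genes Smad6 (0.59 ± 0.09) and Smad7 (0.84 ± 0.13) rose, while Bmp4, a ligand of the ridge and interdigit, did not pass (-0.20 ± 0.21). Another probe set of Smad7, dimmer, changed by -0.08 and did not pass.

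WNT genes moved more often upwards, with 11 of 27 measured members higher (40.7%) and 2 lower (7.41%), at a median change of 0.31, and 7 were higher without WT 13.5 dpc replicate 1. Dkk1, a secreted WNT inhibitor of the distal mesenchyme, lay at 8.55 and 8.84 in WT 13.5 dpc limbs and 7.45 and 7.24 in WT 12.5 dpc limbs (1.35 ± 0.21, adjusted p = 0.00214). The ligand genes Wnt4 (1.06 ± 0.15), of joints, and Wnt6 (0.89 ± 0.12), of ectoderm, rose, as did the WNT target Axin2 (0.93 ± 0.11) and the transcription factor Lef1 (0.71 ± 0.10). Frzb, a WNT-binding protein of cartilage, moved against them, at 7.90 and 7.80 in WT 13.5 dpc limbs and 9.95 and 9.97 in WT 12.5 dpc limbs (-2.12 ± 0.37, adjusted p = 0.00349). Of 13 retinoid genes, 4 were higher and 0 lower by limma (0 lower at an unadjusted p under 0.05), with a median change of 0.43, and 2 were higher when either replicate 2 of 13.5 dpc or replicate 1 of 12.5 dpc was left out. The 4 were Rdh10 (1.20 ± 0.29), which makes retinal for retinoic acid synthesis, Cyp26a1 (0.83 ± 0.13), which degrades retinoic acid, the reductase Dhrs3 (0.68 ± 0.13) and the retinol receptor Stra6 (0.52 ± 0.12). The calls of Rdh10 and Stra6 ended without single arrays (adjusted p of up to 0.0971, without any WT array of these stages, and 0.0872, without either replicate 2 of 13.5 dpc or replicate 1 of 12.5 dpc). Of 7 genes of the dorsoventral list, by the brightest probe set, 1 was higher (En1) and 2 were lower, of which Epyc, a proteoglycan gene, is described with cartilage and Wnt7a is uncertain. En1, the ventral ectoderm factor, rose to 5.12 and 5.03 in WT 13.5 dpc limbs, against 4.31 and 4.73 at 12.5 dpc, all below the median of all values (adjusted p = 0.032, and up to 0.199 without 1 array). Lmx1b itself did not pass (0.81 ± 0.35, adjusted p = 0.119). The probe sets of Wnt7a, the dorsal ectoderm ligand, disagreed, at -0.56 ± 0.13 (adjusted p = 0.0131, and up to 0.11 without replicate 2 of either stage) on the brightest, 0.59 on the second (adjusted p = 0.0171 over all probe sets) and -0.40 on a further, dim one, so that no direction is given for it.

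Part of the genes of cartilage maturation and bone were higher. Rises in the cartilage list were near the share over all genes, and the core cartilage factors did not pass. Col9a3, a chain of type IX collagen in cartilage, lay at 11.75 and 11.73 in WT 13.5 dpc limbs and 10.10 and 10.37 in WT 12.5 dpc limbs (1.50 ± 0.30, adjusted p = 0.00606), while its other probe sets changed by 0.21 and 0.11 and did not pass. Col11a2 (1.39 ± 0.35), Col9a2 (1.11 ± 0.31) and the matrilin Matn3 (0.82 ± 0.24) were higher too, and their calls ended without any 1 of the 4 WT arrays of these stages (adjusted p of up to 0.114, 0.099 and 0.126 for Col9a2, Col11a2 and Matn3). Sox9, the master factor of cartilage, lay at 11.02 and 10.89 at 13.5 dpc and 10.81 and 10.82 at 12.5 dpc (0.14 ± 0.15) and did not pass, nor did Col2a1 (0.54 ± 0.20) or Acan (0.41 ± 0.38), the main collagen and proteoglycan of cartilage. Epyc, a proteoglycan gene of cartilage, moved the other way, at 5.58 and 5.59 in WT 13.5 dpc limbs and 6.93 and 7.25 in WT 12.5 dpc limbs (-1.51 ± 0.31, adjusted p = 0.00686). In all, 4 of 22 cartilage genes were higher (18.2%) and 1 lower (4.55%), near the background for rises, and 1 was higher without any 1 of the 4 WT arrays of these stages and 7 without either KO 12.5 dpc array. Of 15 genes of hypertrophy and bone, 5 were higher (33.3%) and 0 lower by limma (1 at an unadjusted p under 0.05), and 3 were higher without replicate 2 of either stage. Besides Ihh these were Dlx3 (1.39 ± 0.13), a homeobox gene of bone and skin, Col10a1 (0.93 ± 0.20), the collagen of hypertrophic cartilage, Col1a1 (1.03 ± 0.26), the main collagen of bone and tendon, and Pth1r (0.71 ± 0.14), the receptor of parathyroid hormone-related protein. The bone factor Sp7 did not pass (-0.28 ± 0.14).

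Joint and tendon genes held rises without falls among the called. In the joint interzone list 4 of 16 were higher and 0 lower by limma (0 at an unadjusted p under 0.05), and 8 were higher without either KO 12.5 dpc array. The 4 were Sfrp2 (1.15 ± 0.17) and Wnt4 of the WNT pathway, the matrix protein gene Cilp (1.12 ± 0.14) and the transcription factor gene Osr2 (0.99 ± 0.18). Gdf5, the growth factor that marks interzones, lay at 11.36 and 11.29 in WT 13.5 dpc limbs and 10.13 and 10.47 in WT 12.5 dpc limbs and missed the threshold (1.02 ± 0.34, adjusted p = 0.0512). Tnmd, encoding the tendon membrane protein tenomodulin, lay at 8.18 and 8.33 at 13.5 dpc, against 5.57 and 5.60 at 12.5 dpc, where it was below the median of all values (2.67 ± 0.30, a 6.36-fold difference, adjusted p = 0.000594). Of 21 tendon and ligament genes, 8 were higher (38.1%) and 0 lower by limma (0 at an unadjusted p under 0.05). The count higher was 5 without either WT 13.5 dpc array or WT 12.5 dpc replicate 1, and 13 without either KO 12.5 dpc array. Htra3 (1.51 ± 0.27), a secreted protease, Fmod (1.04 ± 0.26) and Bgn (0.76 ± 0.14), small proteoglycans that bind collagen, and the homeobox gene Six2 (0.87 ± 0.11) were among them. Scx, the factor that marks tendon progenitors, did not pass (-0.40 ± 0.20), and Mkx, a homeobox gene of later tendon, lay at 9.66 and 9.62 against 8.71 and 8.82 with an adjusted p of 0.057. Of 22 fibrillar and other collagens outside cartilage 7 were higher and 0 lower by limma (1 at an unadjusted p under 0.05), led by Col24a1 (1.74 ± 0.30) and Col16a1 (1.07 ± 0.18). That count was 3 without either WT 13.5 dpc array or WT 12.5 dpc replicate 1, and 13 without either KO 12.5 dpc array. Of 14 small leucine-rich proteoglycans 2 were higher, Fmod and Bgn, and 1 was lower, Epyc. The calls of Col1a1 and Fmod ended without single WT arrays of these stages (adjusted p of up to 0.0957 and 0.0913), and that of Col10a1 without replicate 2 of either stage (0.0771).

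**Figure D4:**
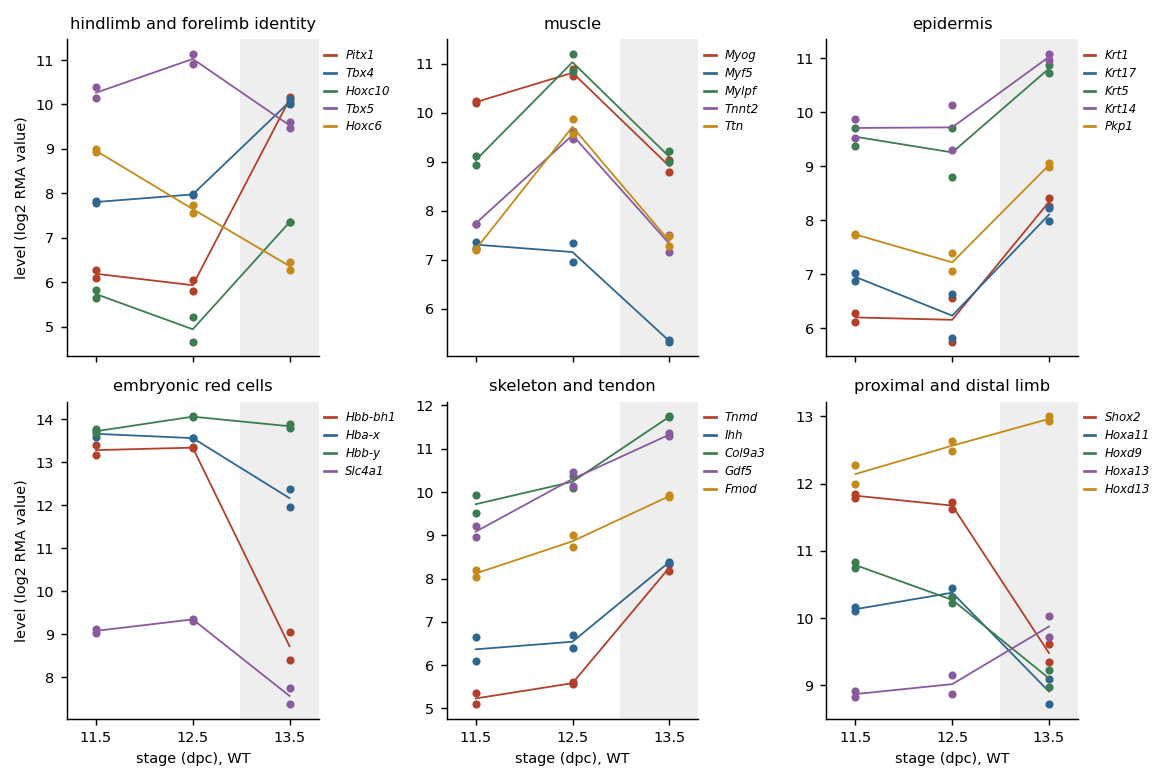
Level in log2 units (vertical axis) of genes of 6 groups in each WT array (points) and their means (lines) at 11.5, 12.5 and 13.5 dpc (horizontal axis); the grey band marks the stage sampled as distal limb, the earlier stages being limb with girdle. Myog, Mylpf, Tnnt2 and Ttn had their highest mean at 12.5 dpc, and Krt1 and Krt17 had theirs at 13.5 dpc.

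Genes of skeletal muscle were lower in the distal limbs of 13.5 dpc. Myog, the factor that drives muscle differentiation, lay at 9.03 and 8.80 log2 units in WT 13.5 dpc limbs and 10.74 and 10.89 in WT 12.5 dpc limbs (-1.90 ± 0.29, adjusted p = 0.00202). Myf5, at 5.33 and 5.36 against 6.96 and 7.35 (-1.81 ± 0.27, adjusted p = 0.00172), and Myod1, at 8.85 and 8.86 against 9.95 and 10.06 (-1.15 ± 0.21, adjusted p = 0.00388), which commit cells to muscle, fell with it. Mymx, encoding the fusion peptide myomixer, fell (-1.91 ± 0.32). Of 17 progenitor and regulator genes 9 were lower (52.9%) and 0 higher by limma (0 at an unadjusted p under 0.05). The count lower was 3 without WT 13.5 dpc replicate 2, and 5 when either replicate 1 of 13.5 dpc or replicate 2 of 12.5 dpc was left out. Pax7, a gene of muscle progenitors, did not pass (-1.01 ± 0.47). Among 26 genes of the contractile apparatus 18 were lower (69.2%) and 1, Ckm, was higher (0.40 ± 0.13, adjusted p = 0.0463, and up to 0.28 without 1 array), with a median change of -1.43. Ttn, encoding the giant sarcomere protein titin, lay at 7.49 and 7.28 at 13.5 dpc and 9.56 and 9.87 at 12.5 dpc (-2.33 ± 0.42, adjusted p = 0.00376). Troponin T2, encoded by Tnnt2, lay at 7.50 and 7.16 at 13.5 dpc and 9.46 and 9.62 at 12.5 dpc (-2.21 ± 0.41, adjusted p = 0.00453). Mylpf, a myosin light chain, lay at 9.22 and 8.99 at 13.5 dpc and 10.86 and 11.20 at 12.5 dpc (-1.93 ± 0.43, adjusted p = 0.0102). For each of these 6 genes both WT 13.5 dpc values lay below both WT 12.5 dpc values, as for 33.1% of all genes, and the rule that named all of them but Myod1 required it. The skeletal actin gene Acta1 (-1.74 ± 0.51, adjusted p = 0.0324) and the embryonic myosin Myh3 (-1.47 ± 0.44, adjusted p = 0.0341) fell as well. Their calls ended without any 1 of the 4 WT arrays of these stages (adjusted p of up to 0.142 and 0.163), that of Myh3 also without any 1 array of 11.5 dpc, and that of Mylpf without replicate 2 of either stage (0.072). The number of contractile genes called lower was 3 and 6 without WT 13.5 dpc replicates 2 and 1, 5 and 8 without WT 12.5 dpc replicates 2 and 1, and up to 25 without 1 of the other arrays. The summed linear level of the contractile list was 10954 and 9902 in the WT 13.5 dpc arrays, against 26285 and 30637 in the WT 12.5 dpc arrays, and that of the regulators 4299 and 4259, against 6968 and 7652. In bulk tissue fewer muscle cells and less RNA per muscle cell cannot be told apart, and the girdle and upper limb, which the 13.5 dpc samples did not include, cannot be told apart from the stage.

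Over the day before, the contractile list had moved upwards. From 11.5 to 12.5 dpc, both sampled with the girdle, 14 of the 26 contractile genes were higher and 1, Ckm, was lower (-0.41) by limma, with a median of 1.62. Beside its change of -2.33 at the later step, Ttn changed by 2.50 at the earlier one, Tnnt2 by 1.80 beside -2.21, and Mylpf by 2.0 beside -1.93. The 2 steps share the WT 12.5 dpc arrays, so that a high value there moves them in opposite directions. Among all genes 6.67% were higher and 13.1% lower at the earlier step. Across the 3 stages Ttn averaged 7.21, 9.71 and 7.38 log2 units at 11.5, 12.5 and 13.5 dpc.

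The promoters of 3 of the muscle genes that fell are printed because muscle regulators such as Myog and Myod1 bind the E-box, whose letters are CANNTG (the same on both strands). They are RefSeq sequences of GRCm38.p6, from 250 bases before to 50 after the start of the gene, 5′ to 3′ along the gene, with CANNTG in capitals. The letters occurred in 23 of 25 promoters of 22 contractile genes (92%), against 72.3% of the 32851 promoters in the table. They occurred in 77.5% of 102 promoters of the genes lower by at least 1 log2 unit and in 63.1% of 255 promoters of the genes higher by as much. For the basal epidermis list, whose called genes rose, the share was 81.8% of 11 promoters, and for the suprabasal list 75% of 16. For the definitive red cell list it was 77.8% of 9, and for the embryonic globin list 50% of 2. A match is no evidence of binding. The Myog promoter (chr1:134289754-134290053, plus strand) holds 2 matches, that of Mylpf (chr7:127211358-127211657, plus strand) 1 and that of Acta1 (chr8:123894726-123895025, minus strand) 2.
Myog: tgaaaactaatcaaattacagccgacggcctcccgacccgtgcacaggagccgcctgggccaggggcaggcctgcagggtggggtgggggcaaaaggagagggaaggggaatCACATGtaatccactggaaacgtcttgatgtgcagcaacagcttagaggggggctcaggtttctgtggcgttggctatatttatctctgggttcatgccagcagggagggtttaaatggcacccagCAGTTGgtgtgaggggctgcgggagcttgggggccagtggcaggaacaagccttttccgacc
Mylpf: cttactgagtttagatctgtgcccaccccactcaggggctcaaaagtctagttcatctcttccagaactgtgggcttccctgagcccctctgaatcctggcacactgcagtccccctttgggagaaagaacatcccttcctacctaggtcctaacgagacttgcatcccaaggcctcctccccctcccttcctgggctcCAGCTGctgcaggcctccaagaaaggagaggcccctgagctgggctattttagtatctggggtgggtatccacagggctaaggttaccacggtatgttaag
Acta1: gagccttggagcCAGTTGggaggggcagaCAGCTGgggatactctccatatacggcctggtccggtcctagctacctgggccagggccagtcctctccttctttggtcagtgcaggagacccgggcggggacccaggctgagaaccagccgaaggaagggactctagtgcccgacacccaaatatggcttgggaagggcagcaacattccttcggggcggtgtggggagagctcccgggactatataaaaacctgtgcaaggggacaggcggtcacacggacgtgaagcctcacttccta

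Epidermal genes were higher at 13.5 dpc. Of 19 genes of basal epidermis and ectoderm 14 were higher (73.7%) and 0 lower by limma (0 at an unadjusted p under 0.05), with a median change of 0.97. Krt5, a keratin of the basal layer, lay at 10.88 and 10.73 in WT 13.5 dpc limbs and 8.80 and 9.71 in WT 12.5 dpc limbs (1.55 ± 0.26, adjusted p = 0.00281), and its partner Krt14 at 11.08 and 10.97 against 9.30 and 10.14 (1.31 ± 0.27, adjusted p = 0.00676). Perp, a desmosomal protein gene (1.31 ± 0.10), Epcam, an adhesion gene of epithelia (1.07 ± 0.12), Esrp1, an epithelial splicing factor (1.33 ± 0.17), and Col17a1, a collagen that anchors the basal layer (1.43 ± 0.22), rose with them. For Krt5 and Krt14 the WT 12.5 dpc replicates themselves differed by close to 1 log2 unit. Both 13.5 dpc arrays lay above the higher of them, as for 35% of all genes. Krt18, a keratin of simple epithelia, did not pass (-0.05 ± 0.23). The summed linear level of the list was 13763 and 12908 in the WT 13.5 dpc arrays and 5965 and 7573 in the WT 12.5 dpc arrays. A different share of skin in the distal limb and in the limb with girdle cannot be told apart from the stage.

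Part of the genes of the layers above the basal one were higher too. Krt1, the keratin of the first suprabasal layers, lay at 8.26 and 8.42 in WT 13.5 dpc limbs, against 5.75 and 6.56 in WT 12.5 dpc limbs (2.18 ± 0.24, adjusted p = 0.00056), a 4.54-fold difference. Krt17, a keratin of periderm and appendages, lay at 8.22 and 7.99 against 5.82 and 6.64 (1.87 ± 0.32, adjusted p = 0.0032), with a dim other probe set at -0.16. The desmosome genes Pkp1 (1.80 ± 0.16), Dsc3 (1.79 ± 0.23) and Dsp (1.32 ± 0.15) rose. Krtdap, a gene of differentiating keratinocytes, rose as well (1.22 ± 0.18), at 6.07 and 6.25 against 4.83 and 5.04, below the median of all values. Krt10, the partner of Krt1, did not pass (0.36 ± 0.13, adjusted p = 0.0696). Flg, a gene of the cornified layer, did not pass either (-0.20 ± 0.10). The probe sets of Lor, encoding loricrin of the cornified envelope, disagreed, at -0.28 ± 0.20 without passing on the brighter and at 1.57 on the other, where it passed (adjusted p = 0.00226 over all probe sets). In all 10 of 24 were higher (41.7%) and 1 lower (4.17%), and 12 of the 24 lay below the median of all values in the 4 arrays. Among 13 genes of hair follicles and touch domes, 3 were higher and 1 lower, and of these Shh and Lef1 are described with their pathways.

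Of 3 embryonic globin and primitive red cell genes 2 were lower. Hbb-bh1, an embryonic beta-like globin of primitive red cells, lay at 9.05 and 8.40 log2 units in WT 13.5 dpc limbs, against 13.33 and 13.36 in WT 12.5 dpc limbs (-4.62 ± 0.60, adjusted p = 0.000994), the largest fall of any gene by this rule, and its 2 other probe sets changed by -4.07 and -4.36. Hba-x, the embryonic alpha-like globin, lay at 12.37 and 11.97 against 13.56 and 13.57 (-1.39 ± 0.28, adjusted p = 0.00598, and 0.0581 without WT 13.5 dpc replicate 2). Hbb-y, another embryonic beta-like globin, did not pass, at 13.88 and 13.80 against 14.05 and 14.07 (-0.22 ± 0.11). Of 10 genes of a list of definitive globins and other red cell genes 4 were lower (40%) and 1 higher (10%). The count lower was 0 without WT 13.5 dpc replicate 2 and 1 without any other of the 4 WT arrays of these stages. The list was not split between genes of primitive and of definitive cells, so no fall of definitive cells is read from it. Hemgn, a nuclear gene of blood progenitors and erythroblasts, lay at 4.55 and 4.60 at 13.5 dpc and 7.38 and 8.04 at 12.5 dpc (-3.14 ± 0.86, adjusted p = 0.0238, and up to 0.107 without any 1 WT array of these stages). Slc4a1, the anion exchanger of the red cell membrane, fell (-1.78 ± 0.35, adjusted p = 0.00589, and 0.0549 without WT 13.5 dpc replicate 2). Hba-a2, an adult alpha globin, rose, at 6.68 and 7.01 against 6.08 and 6.19 (0.71 ± 0.12, adjusted p = 0.00253). The near-identical copies of the alpha globin genes may share probes, so the split between them is uncertain. Ppbp, a chemokine gene of platelets, fell with the red cell genes (-2.33 ± 0.41). The amount of blood left in each pool was not measured apart from these genes.

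Part of the immune genes were higher, endothelial genes showed little median change, and few nerve genes passed. Of 21 endothelial genes 5 were higher (23.8%) and 1 lower (4.76%), at a median change of 0.026. The count higher was 2 without replicate 2 of either stage. Cdh5, the cadherin of endothelial junctions, lay at 8.76 and 8.77 in WT 13.5 dpc limbs and 7.71 and 7.68 in WT 12.5 dpc limbs (1.07 ± 0.14, adjusted p = 0.00103), whereas Pecam1 (-0.05 ± 0.15) and Kdr (0.05 ± 0.10), further endothelial markers, did not pass. Of 12 genes of mural cells and smooth muscle 4 were higher and 1 lower, with 1 or 2 higher without any 1 of the 4 WT arrays or of the KO 11.5 dpc arrays. Notch3, a receptor of mural cells, rose (0.81 ± 0.10), and Acta2, the actin of smooth muscle and early skeletal muscle, fell (-1.24 ± 0.21). Of 20 macrophage and myeloid genes 6 were higher (30%) and 0 lower by limma (0 at an unadjusted p under 0.05), among them the complement genes C1qc (0.89 ± 0.09) and C1qa (0.57 ± 0.09), the lysozyme Lyz2 (0.59 ± 0.12) and Cd68 (0.51 ± 0.09). The macrophage surface genes Adgre1 (0.15 ± 0.13) and Csf1r (0.35 ± 0.14) did not pass. The summed linear level of the myeloid list was 3100 and 3089 at 13.5 dpc, against 2706 and 2517 at 12.5 dpc. Of 15 neuronal genes 1 was higher and 1 lower, and Tubb3 (-0.38 ± 0.18) and Stmn2 (-0.23 ± 0.22) did not pass. Of 14 Schwann cell and melanocyte genes 2 were higher and 1 lower, the lower one being Erbb3, the neuregulin receptor of Schwann cell precursors (-0.86 ± 0.19, adjusted p = 0.00882, and up to 0.0555 without either WT 13.5 dpc array).

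Part of the remodelling genes rose, and most cell cycle genes did not pass. Bak1, a pore-forming member of the apoptotic machinery, lay at 8.96 and 8.95 in WT 13.5 dpc limbs and 7.49 and 7.35 in WT 12.5 dpc limbs (1.53 ± 0.10, adjusted p = 6.42e-05), while its other probe set changed by 0.26 and did not pass. The matrix metalloproteinases Mmp11 (1.17 ± 0.17) and Mmp2 (0.78 ± 0.11) and the death-associated kinase Dapk1 (0.77 ± 0.11) rose as well, and 7 of the 17 genes of interdigit death and remodelling were higher (41.2%) and 0 lower by limma (3 at an unadjusted p under 0.05), with 4 higher when either replicate 2 of 13.5 dpc or replicate 1 of 12.5 dpc was left out. Of 28 cell cycle genes 3 were higher and 2 lower, with a median of -0.12, and 0 or 1 were higher without any 1 of the 4 WT arrays. The proliferation marker Mki67 did not pass (-0.19 ± 0.09). Of 13 imprinted growth genes 2 were lower and 0 higher by limma (0 at an unadjusted p under 0.05), and Igf2 did not pass (-0.08 ± 0.11). Of 8 heterochronic RNA-binding genes 1 was lower and 0 higher by limma (0 at an unadjusted p under 0.05), and Hmga2, a chromatin gene of growing tissue, did not pass (-0.30 ± 0.12). Of 28 guidance genes 4 were higher (14.3%) and 3 lower (10.7%), close to the shares over all genes (14.5% and 10.8%). Without either KO 12.5 dpc array 8 were higher. Among them the Slit receptor Robo2 fell, at 4.88 and 4.72 against 6.0 and 5.92, all below the median of all values (-1.16 ± 0.19). The netrin receptor Unc5c rose (0.99 ± 0.14), with another probe set at -0.18. Glucose transporters moved in opposite directions, with Slc2a3 higher (1.05 ± 0.11) and Slc2a1 lower (-0.78 ± 0.16), although the call of Slc2a1 ended without WT 13.5 dpc replicate 2 (0.0679) and another of its probe sets lay at 0.05. Of 15 hypoxia and glycolysis genes 4 were higher and 3 lower, with 2 higher without any 1 of the 4 WT arrays and 0 lower without WT 13.5 dpc replicate 2. Of 14 early stress genes 2 were higher and 1 lower. Of 4 sex-linked genes 1 was lower and 0 higher by limma (3 and 0 at an unadjusted p under 0.05), with a median change of -2.99. The Y-linked Uty fell (-2.92 ± 0.88, adjusted p = 0.0349, and up to 0.191 without 1 array). Xist, made from the inactive X of females, lay at 12.67 and 12.86 in WT 13.5 dpc pools and 6.72 and 11.53 in WT 12.5 dpc pools (3.64 ± 1.72, adjusted p = 0.147), so that it differed also between the pools of 12.5 dpc. The labels do not give the sex of the embryos, and the part of sex in other changes was not tested.

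Several of the largest changes lay outside the lists. Stk32b, a kinase gene, lay at 8.82 and 8.94 in WT 13.5 dpc limbs and 6.16 and 5.22 in WT 12.5 dpc limbs (3.19 ± 0.46, adjusted p = 0.00146). Penk, encoding the enkephalin precursor, lay at 9.37 and 9.16 at 13.5 dpc and 6.99 and 7.51 at 12.5 dpc (2.02 ± 0.27, adjusted p = 0.00107). Cebpa, a transcription factor of fat, blood and skin, lay at 8.35 and 8.34 at 13.5 dpc and 6.26 and 6.27 at 12.5 dpc (2.08 ± 0.24, adjusted p = 0.000677). Further rises were seen for Celsr1 (2.09 ± 0.20), a cadherin of planar cell polarity, Cpxm2 (2.07 ± 0.13), a carboxypeptidase-like gene, Cyb561 (2.03 ± 0.22), a cytochrome gene, Sbspon (2.14 ± 0.35), a somatomedin B and thrombospondin domain gene, Grin3a (2.01 ± 0.22), a glutamate receptor subunit, and Fgf12 (1.99 ± 0.34), an intracellular FGF family member. These 9 calls held without each of the 12 arrays in turn. The anion transporter Slc26a7 (2.32 ± 0.52), the water channel Aqp1 (2.23 ± 0.58), the pregnancy-specific glycoprotein Psg28 (2.03 ± 0.43), the lectin Chodl (1.97 ± 0.63) and Gm3715 (2.89 ± 0.73) rose too, but lost their calls without at least 1 array (adjusted p of up to 0.0612, 0.0919, 0.0576, 0.155 and 0.0918). On the other side, Mab21l1, a gene of eye and limb development, lay at 8.54 and 8.52 in WT 13.5 dpc limbs and 10.34 and 10.28 in WT 12.5 dpc limbs (-1.78 ± 0.19, adjusted p = 0.000515). Lix1 (-1.80 ± 0.31) and Hspb2 (-1.75 ± 0.27), a small heat shock gene of muscle, fell. Lmod3 (-1.89 ± 0.39), a nucleator of muscle actin filaments, and Neb (-2.13 ± 0.45), encoding nebulin, fell too, and lost their calls without WT 13.5 dpc replicate 2 (0.061 and 0.0562).

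The same interval in KO limbs, on 4 arrays that share none with the WT comparison, gave changes of the same sign for most of these genes. The KO arrays had the same 2 stages, dissected parts and scan series, so these cannot be told apart in KO either. Over all genes the median KO change was 0.037 log2 units. Of the 272 genes higher by at least 1 log2 unit in WT, 272 had a positive change in KO and 198 were called higher there, where 10.4% of all genes were called higher. Of the 122 lower by as much, 117 had a negative change and 54 were called lower, where 8.22% of all genes were. Over all genes KO counts were 1887 higher and 1495 lower, and 973 and 581 without KO 13.5 dpc replicate 1. The median change of the 272 genes was 0.84 in KO and 1.20 in WT, and that of the 122 was -0.83 in KO and -1.27 in WT; since the genes were chosen for a large change in WT, the smaller size in KO is not a result. Pitx1 changed by 4.30 in KO (adjusted p = 5.95e-07), Tbx4 by 2.04 (0.000263), Hoxc10 by 3.78 (0.000434), Tnmd by 1.83 (0.00423) and Krt1 by 1.53 (0.00364). Of the 4 forelimb genes Tbx5, Hoxc4, Hoxc5 and Hoxc6, 1 was called lower in KO, at a median change of -0.03, against 3 and -1.39 in WT. Shox2 changed by -0.38 (0.475) and Hbb-bh1 by -1.69 (0.0764) and did not pass.

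The KO replicates differed by a root mean square of 0.267 log2 units at 13.5 dpc and 0.356 at 12.5 dpc. The WT replicates differed by 0.148 and 0.237. These values do not tell which array of a pair is the unusual one. At 12.5 dpc the summed level of the contractile list was 37038 in KO replicate 1 and 12953 in KO replicate 2. It was 26285 and 30637 in the WT arrays of that stage. Only a fit without both KO replicate 2 arrays was run, none without both KO replicate 1 arrays. The KO 13.5 dpc replicate 2 array lay at 12.91 for Hbb-bh1 and 11.66 for Shox2, against 10.48 and 10.16 in KO 13.5 dpc replicate 1. The fit without both KO replicate 2 arrays left 1 array a stage, whose spread was assumed to be that of the other groups. In it Shox2 changed by -1.16 and Hbb-bh1 by -2.42. Then 185 of the 272 and 109 of the 122 genes were called in the WT direction, where 11.4% and 13.3% of all genes were called higher and lower. Of the contractile genes 4 were lower in KO with all arrays, at a median change of -0.95, and the median was -2.13 without both. The median of the 4 forelimb genes was -1.83 without both. In the tendon list the KO median went from 0.51 with all arrays to -0.097 without both, against 0.39 in WT. It went from 0.18 to -0.15 for fibrillar and other collagens, from 0.33 to -0.0011 for joints and from 0.41 to 0.56 for basal epidermis. The difference of the WT and KO changes was called for 0 of 18193 genes by limma, with 1546 at an unadjusted p under 0.05. The smallest p belonged to Foxf2, a forkhead gene of mesenchyme, with a change of 1.82 in WT and 0.51 in KO (difference 1.31 ± 0.18, adjusted p = 0.339), followed by Calb2, a calcium-binding protein gene (-0.43 in WT and 1.40 in KO), and 1700019D03Rik (0.62 in WT and -0.34 in KO). For this difference 46 genes were called without KO 12.5 dpc replicate 1, 15 without KO 12.5 dpc replicate 2, 1 without KO 13.5 dpc replicate 1 and 9 without both KO replicate 2 arrays.

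**Figure D5:**
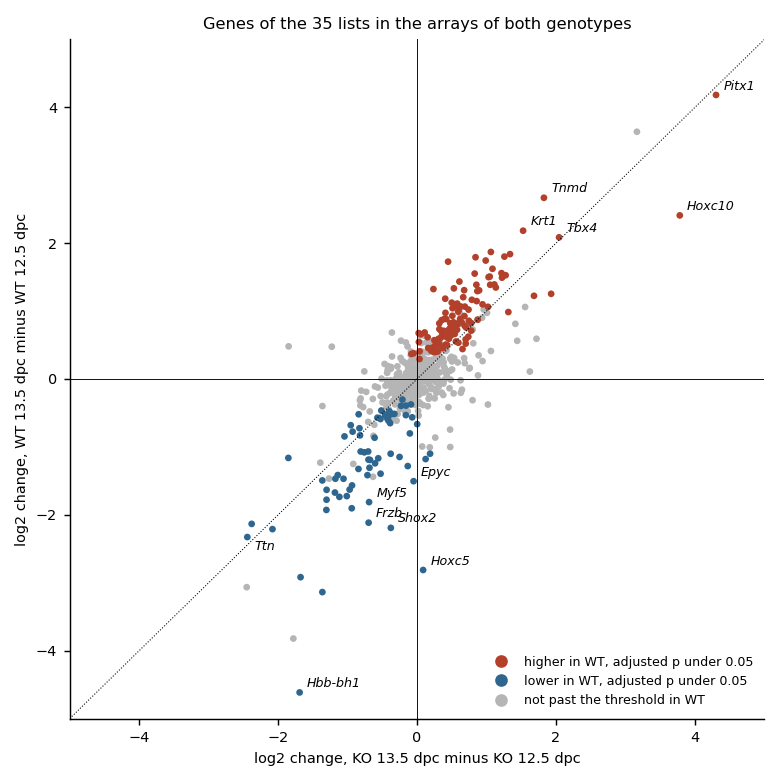
Log2 change from 12.5 to 13.5 dpc of the genes of the 35 lists in WT (vertical axis) and in KO (horizontal axis), both 13.5 minus 12.5 dpc; red and blue points passed the adjusted p of 0.05 in WT, grey points did not, and the dotted line marks equal changes. Pitx1 changed by 4.18 in WT and 4.30 in KO, and Hbb-bh1 by -4.62 and -1.69.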

How the data were processed

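RNA of mouse limbs had been read on Affymetrix microarrays, 2 arrays for each of 6 groups of stage and genotype. The authors deposited log2 expression values. RMA made them, according to the notes on processing by the submitters, and its version and settings are not given in the sources used here. The table held 45101 probe sets. After 64 control probe sets, 932 that name several genes and 9160 without a name in the annotation used were set aside, 34945 remained, of which 34741 matched a RefSeq gene, for 18193 genes. Where a gene had several probe sets, the brightest by its mean of all 12 arrays was taken.

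Group means of all 12 arrays were fitted with lmFit and eBayes (limma 3.58.1, R 4.3.3, 6 residual and 4.22 prior degrees of freedom), two-sided, with p-values adjusted by Benjamini-Hochberg over all 18193 genes at 0.05. Errors are SE of the fit. With 2 arrays a group the number of arrays limits the precision, and each array is a pool, so that p-values measure the spread between pools. No 2 replicate arrays held identical values over all genes. Replicate numbers were not taken to pair the arrays: the labels tie no numbers together, and the deviations of same-numbered arrays from their group means correlated at -0.193 to 0.187 over the 15 pairs of groups, over 0.1 in 4 of them, and at -0.0047 between WT 13.5 and WT 12.5 dpc. All samples were used, and no column was left without a sample.

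The genes and lists were chosen with earlier results of these data known. The genes named were Pitx1, Tnmd, Krt1 and Shox2, the up to 20 largest called changes in each direction whose arrays did not overlap and whose higher group mean lay above the median of all values, called members of 35 lists from the largest change down, members that define a tissue, and the 3 smallest p of the difference between WT and KO. The lists held 611 entries, of which 572 were measured here. Alternatives changed the probe set, the variance prior, array weights, normalization, the filter on dim genes, the arrays fitted, the threshold and the replicate block.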

Additional observations from a re-analysis of the deposited data

How the results depend on the processing

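The direction of the 125 named genes that were called did not turn under any alternative other than another probe set, and 84 of them kept the call under all of those. Leaving out 1 array at a time ended the call of 39, most often WT 13.5 dpc replicate 2 (38). The intensity trend with a robust prior ended 13, the mean of probe sets 8 and the replicate block 3, namely Hoxc5, Ckm and Hoxa7. The replicate block left 2554 genes higher and 1903 lower in WT, and 1803 and 1383 in KO. Without 1 array, the WT counts ran over 1139 to 3254 higher and 524 to 2529 lower, past 2-fold 217 to 316 and 71 to 140, the KO counts 973 to 2297 and 581 to 2029, the difference of WT and KO 0 to 13 and 0 to 35, the earlier WT step 174 to 1761 and 640 to 2965, and the list genes 72 to 158 and 17 to 96. At an adjusted p of 0.01 the counts were 1293 and 676 in WT (77 past 2-fold lower), 577 and 509 in KO, 308 and 970 at the earlier step, and 74 and 28 in the lists. With every probe set tested, 3797 were lower in WT, 437 and 340 past 2-fold, 3041 and 3248 in KO and 2406 and 3695 at the earlier step, counted as probe sets. Without both KO replicate 2 arrays of these stages, 3218 were lower in WT and 2420 in KO, 8 and 1 were called for the difference, 2229 and 3721 at the earlier step and 119 lower in the lists. Array weights left 258 and 238 in KO, the arrays of the contrast alone 5 and 3 in KO, and the 6 WT arrays alone gave 1871 higher at the earlier step and 106 lower in the lists. The causes were not tested.

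Of 97 other probe sets of the genes named and called by the rule, 90 had the same sign and 55 of them also passed over all probe sets. Probe sets of the same sign brighter than the median of all values that did not pass changed by 0.26 (Bak1), 0.21 (Col9a3), 0.43 (Dapk1), 0.37 (Epcam), 0.51 (Fmod), -0.18 (Hoxc6), 0.38 (Htra3), 0.021 (Lef1), -0.47 and -0.23 (Lhx9), 0.66 (Slc2a3) and 0.62 (Wnt4). The other probe set with the least change in the same direction lay at -0.16 for Krt17, 0.15 for Ttn, -0.0795 for Smad7, -0.0700 for Htra3, 0.59 for Wnt7a, -0.18 for Unc5c and 0.0535 for Slc2a1, against the direction of the gene's main probe set, and near 0 in the same direction for Shh (-0.0241) and Tbx3 (-0.0934). Of the genes that did not pass, other probe sets gave -0.00297 for Isl1, -0.0942 for Lmx1b, 0.13 for Scx, 0.0590 for Pax7, 0.15 for Hmga2 and 1.57 for Lor (0.38 as the mean of probe sets). Leaving out 1 array gave -0.106 to 0.324 for Fgf10, -0.0447 to 0.133 for Ptch1, -0.193 to 0.0985 for Krt18 and -0.117 to 0.010 for Pecam1, which were not called with all arrays.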
